A study of Mus musculus with 8 samples.

Results

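The genes described are 7 aquaporins (Aqp1, Aqp2, Aqp3, Aqp4, Aqp6, Aqp7 and Aqp11), the vasopressin receptor gene Avpr2 and the urea transporter gene Slc14a2, measured in whole mouse kidney after feeding of cinacalcet hydrochloride. They were chosen by name, as every probe whose RefSeq accession belongs to one of these symbols, and they make up 9 of 14209 genes tested. By their labels the 4 control samples came from male mice on standard chow. The 4 treated samples came from male mice given cinacalcet HCl for 5 days, at a dose the labels word as 1 mg per g body weight, and all mice were 12 weeks old. No strain, transgene or other treatment is given in the labels. Each RNA went onto its own single-colour Agilent array of a slide that held all 8. Separate animals are not named in the labels, which only number the samples, so the p-values cover the spread among samples, and part of that may be technical.

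Cinacalcet is a calcimimetic, a drug that makes the calcium-sensing receptor more responsive to calcium. Water leaves the collecting duct through aquaporins: vasopressin binds the V2 receptor encoded by Avpr2 on principal cells, cyclic AMP rises, and vesicles carrying aquaporin 2 fuse with the apical membrane, while aquaporins 3 and 4 let water out across the basolateral side. Aquaporin 1 carries water in the proximal tubule, the descending thin limb and the vasa recta, and Slc14a2 encodes the urea transporters of the inner medulla and thin limb that help to build the osmotic gradient. The calcium-sensing receptor is also present in the collecting duct, where its activation is known to blunt the action of vasopressin on aquaporin 2. The comparison of cinacalcet with control asks whether the RNA of these genes differed in the treated kidneys.

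The regulatory sequence through which vasopressin is known to reach Aqp2 transcription lies just before the gene. It is shown with those of Aqp3, the basolateral partner channel, and Avpr2, the receptor, because these 3 genes form the principal cell water pathway described below. The windows hold the 250 bases before the annotated start of each gene, from the RefSeq promoter table of build GRCm38.p6, and lie at chr15:99578806-99579055 on the plus strand for Aqp2, chr4:41098184-41098433 on the minus strand for Aqp3 and chrX:73891852-73892101 on the plus strand for Avpr2. Capitals mark matches on either strand to TGACGT, the core of the cyclic AMP response element, to AGATAA, a site of GATA factors, and to TATAAA, the TATA box.
Aqp2: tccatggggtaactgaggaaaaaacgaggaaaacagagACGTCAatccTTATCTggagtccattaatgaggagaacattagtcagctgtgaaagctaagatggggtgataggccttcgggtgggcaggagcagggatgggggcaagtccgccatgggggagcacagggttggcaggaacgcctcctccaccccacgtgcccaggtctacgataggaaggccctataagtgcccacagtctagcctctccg
Aqp3: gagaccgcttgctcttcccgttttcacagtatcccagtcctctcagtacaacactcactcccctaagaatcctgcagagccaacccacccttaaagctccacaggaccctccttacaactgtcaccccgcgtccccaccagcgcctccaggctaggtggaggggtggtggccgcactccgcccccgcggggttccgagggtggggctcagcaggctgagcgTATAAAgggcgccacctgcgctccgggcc
Avpr2: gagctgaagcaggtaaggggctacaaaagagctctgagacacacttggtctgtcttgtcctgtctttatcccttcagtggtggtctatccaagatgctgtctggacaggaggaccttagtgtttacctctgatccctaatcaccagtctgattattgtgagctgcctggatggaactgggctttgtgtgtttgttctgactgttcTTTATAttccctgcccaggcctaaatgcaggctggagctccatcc
The Aqp2 window held TGACGT on the opposite strand, 212 bases before the start, with AGATAA, also on the opposite strand, 202 bases before it. Of the 7 genes with a window in the table, TGACGT was found in Aqp2 and in none of the other 6, and 6.47% of all 32851 windows held it. AGATAA was found in Aqp2 and Aqp7 and in 9.99% of all windows, and TATAAA in Aqp3 and Avpr2 and in 12.4%. These are matches of letters and not measured binding sites. The 3 motifs share no bases in the windows shown.

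The 75th percentile of intensity over an array's spots, to which levels are scaled, was 202.9 on the dimmest array and 257.1 on the brightest. The share of spots well above background was 51.8% to 58.0%. Levels are log2 intensities minus that percentile, given as mean ± SD with n = 4 per group. A probe's brightness also depends on its sequence, so levels are compared between arrays and not between genes. All 7 markers of the proximal tubule fixed for a check of the tissue were well above background on all 8 arrays. The arrays labelled control 4, cinacalcet 2 and cinacalcet 3 went against their label of male: Y-linked Kdm5d, Uty, Eif2s3y and Ddx3y all stayed below that limit there, while Xist, the transcript of the inactive X chromosome, had levels of 0.95, 0.46 and 0.73. The remaining 5 arrays had 3 or 4 of the Y-linked genes above background and Xist levels of -6.99 to -4.22. Results are therefore also given with Y-linked signal as a block and for the 5 arrays that had it, called Y-positive.

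None of the 9 genes passed an adjusted p of 0.05 in limma, and 1, Slc14a2, had an unadjusted p under 0.05. Over all genes 8.02% passed and 27.9% had an unadjusted p under 0.05. The groups did not separate on all arrays for any of the 9, where 17.8% of all genes had groups that did not overlap, 8.01% with cinacalcet higher and 9.8% with cinacalcet lower. The estimates of 8 of the 9 were above 0, against 45.4% of all genes, and the median log2 fold change of the 9 was 0.11, against -0.03 over all genes. Aqp2, Aqp6 and Slc14a2 kept their sign in all 21 alternatives described below, and the other 6 of the 9 did not. The 95% confidence interval of the change lay inside -0.5 to 0.5 for 6 of the 9, namely Aqp1, Aqp3, Aqp6, Aqp7, Aqp11 and Avpr2. For Aqp6 this rests on its brighter probe, with an upper limit of 0.49, as a dimmer probe had an estimate of 0.64. The widest intervals belonged to Aqp4, Aqp2 and Slc14a2.

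**Figure D1:**
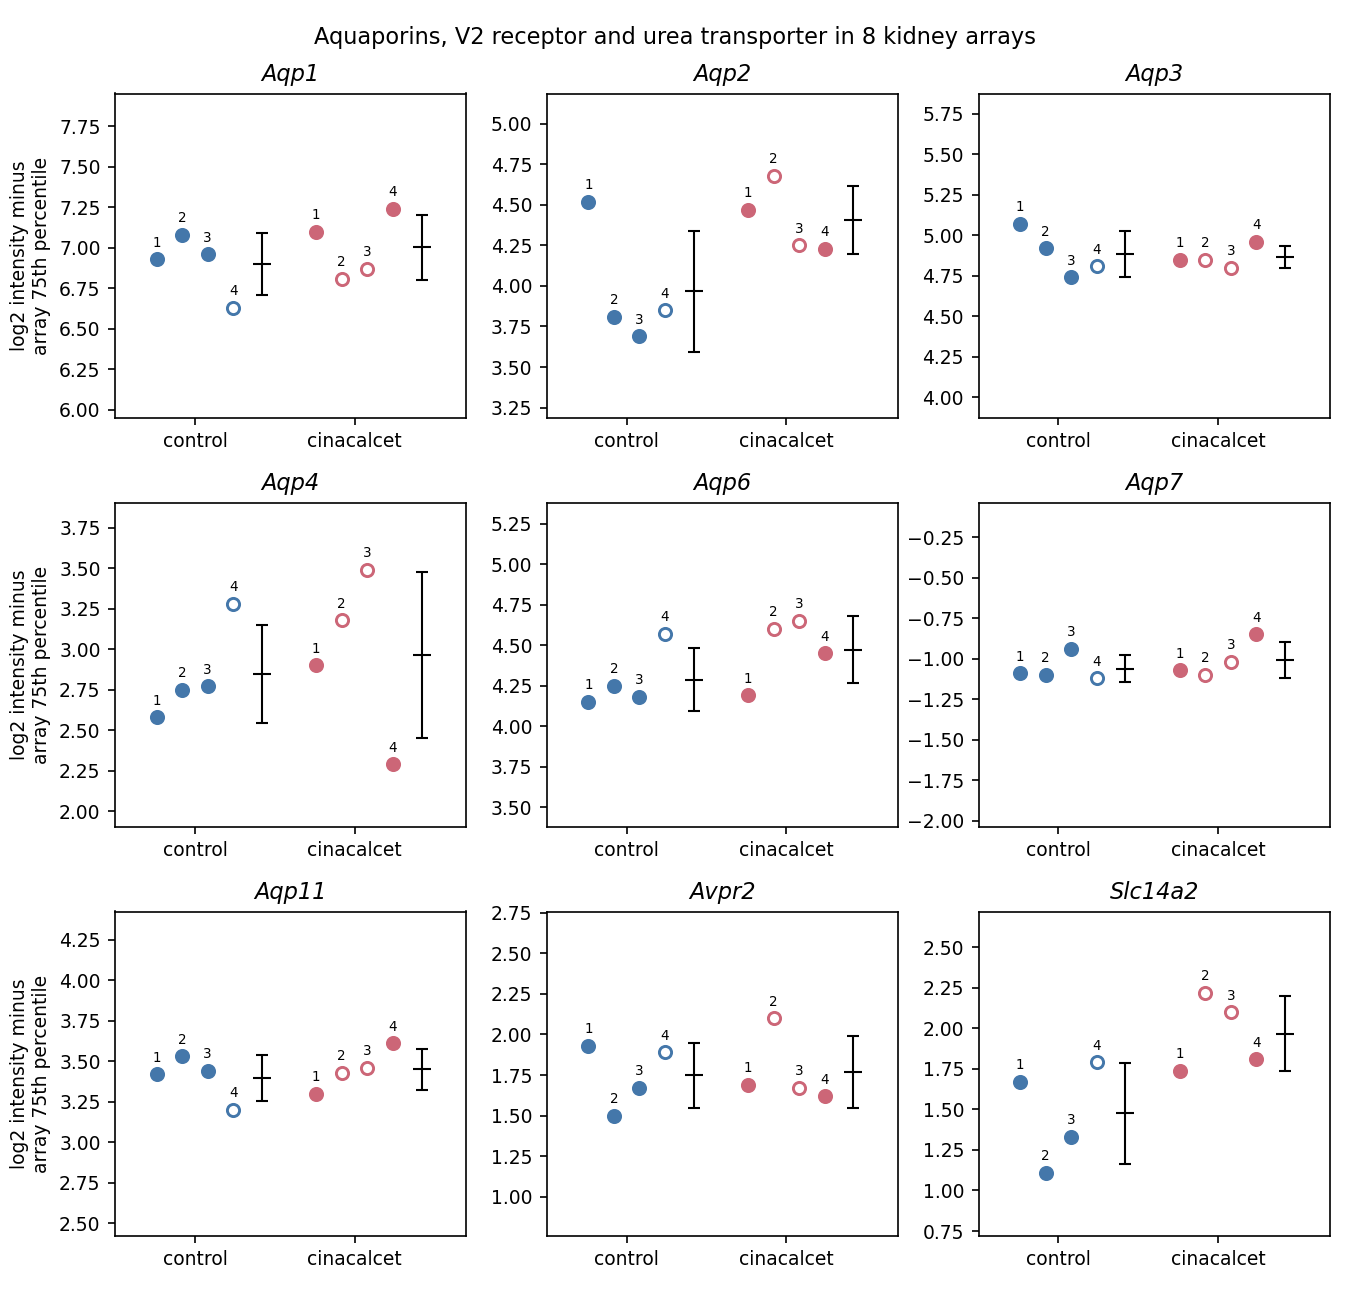
Log2 intensity minus the array's 75th percentile (vertical axis) of each of the 9 genes on 4 control and 4 cinacalcet arrays, numbered by replicate; open circles are the 3 arrays without Y-linked signal, bars show mean ± SD, and every panel spans the same height on the log2 scale. Aqp2 and Slc14a2 sat mostly higher with cinacalcet, with Aqp2 of control 1 at 4.52 among the treated values, while Aqp3, Aqp7 and Aqp11 lay close together in both groups.

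The V2 receptor gene did not pass. Avpr2 was at 1.93, 1.50, 1.67 and 1.89 on control arrays 1 to 4 and at 1.69, 2.10, 1.67 and 1.62 on cinacalcet arrays 1 to 4. The groups overlapped throughout, with cinacalcet 2 as the highest array and control 2 as the lowest. The means were 1.75 ± 0.20 and 1.77 ± 0.22, a log2 fold change of 0.02 with an interval of -0.30 to 0.35 (limma adjusted p = 0.927). A dimmer Avpr2 probe gave the same ranks for the highest and lowest array and a log2 fold change of -0.00498.

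Aqp2, the vasopressin-regulated apical channel of principal cells, was at 4.52, 3.81, 3.69 and 3.85 in controls and at 4.47, 4.68, 4.25 and 4.23 with cinacalcet. The 4 cinacalcet arrays lay above the mean of the controls and above 3 of the 4 control arrays, and control 1 lay among them. The mean went from 3.97 ± 0.37 to 4.41 ± 0.21, a log2 fold change of 0.44 (SE 0.19) with an interval of -4.34e-05 to 0.88 (limma adjusted p = 0.179). Without control 1 the estimate was 0.62 and did not pass (limma adjusted p = 0.0593). Blocking on Y-linked signal left it at 0.44 (limma adjusted p = 0.175) and 0.34 on the 5 arrays with that signal (limma adjusted p = 0.433), and among those 5 arrays control 1 was the highest.

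The genes of the basolateral channels showed different spreads in whole kidney RNA, which does not separate cell types. Aqp3, which also carries glycerol, was at 5.07, 4.92, 4.74 and 4.81 in controls and at 4.85, 4.85, 4.80 and 4.96 with cinacalcet. All cinacalcet values lay within the control range, with means of 4.88 ± 0.14 and 4.86 ± 0.07. The log2 fold change of -0.02 had an interval of -0.22 to 0.18 (limma adjusted p = 0.896). It was 0.06 with quantile normalization and 0.03 with normexp background correction, so these data give no direction for Aqp3.

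Aqp4, the water channel of basolateral membranes in the inner medullary collecting duct and of astrocytes in brain, was at 2.58, 2.75, 2.77 and 3.28 in controls and at 2.90, 3.18, 3.49 and 2.29 with cinacalcet. Cinacalcet 3 was the highest of the 8 arrays and cinacalcet 4 the lowest, so the treated group spanned the whole control range. The log2 fold change was 0.12 with an interval of -0.48 to 0.72 (limma adjusted p = 0.800). A second Aqp4 probe followed the first closely, at 2.06 on cinacalcet 4 and 3.22 on cinacalcet 3, with a log2 fold change of 0.18. Blocking on Y-linked signal gave an estimate of -0.05, and on the 5 arrays with that signal it was -0.11.

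By its brighter probe Slc14a2 had the largest estimate of the 9. That probe was at 1.67, 1.11, 1.33 and 1.79 in controls and at 1.74, 2.22, 2.10 and 1.81 with cinacalcet. Of the cinacalcet arrays, 3 lay above the highest control, control 4, and cinacalcet 1 lay just below it. The log2 fold change was 0.49 (SE 0.18), from 1.48 ± 0.31 to 1.96 ± 0.23, or 1.40-fold, with an interval of 0.08 to 0.89 and an unadjusted p of 0.0235 in limma (adjusted p = 0.119). Without control 4 it passed, at 0.59 (limma adjusted p = 0.0460), as it did with array weights, at 0.69 (limma adjusted p = 0.0113). The only control array without Y-linked signal was control 4, so without it such arrays were found in the cinacalcet group alone. Of all 14209 genes 3356 passed without control 4 and 5438 with array weights, against 1139 in the fit without these changes. The brighter probe did not pass with Y-linked signal as a block, at 0.39 (limma adjusted p = 0.0674), or on the 5 arrays with that signal, at 0.40 (limma adjusted p = 0.191). Within slide rows 1 and 2 it was 0.70 and 0.28. With the mean over both probes it was 0.17 (limma adjusted p = 0.879), below Aqp2 at 0.44 and Aqp6 at 0.41.

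A dimmer Slc14a2 probe, which the files assign to another RefSeq transcript of the gene, gave a different pattern. It was at 0.63, -2.21, -2.11 and 1.06 in controls and at 0.34, 0.41, -0.37 and -3.58 with cinacalcet. The highest array, control 4, was 21.7-fold brighter in deposited, unscaled intensity than the lowest, cinacalcet 4, where the brighter probe ranged 2.32-fold over the 8 arrays. Control 2, control 3 and cinacalcet 4 were low and the other 5 arrays high, so low and high arrays were found in both groups. The means were -0.66 ± 1.75 and -0.80 ± 1.89, a log2 fold change of -0.14 (limma adjusted p = 0.949 over 29732 probes), so the estimates of the 2 probes differed in sign.

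**Figure D2:**
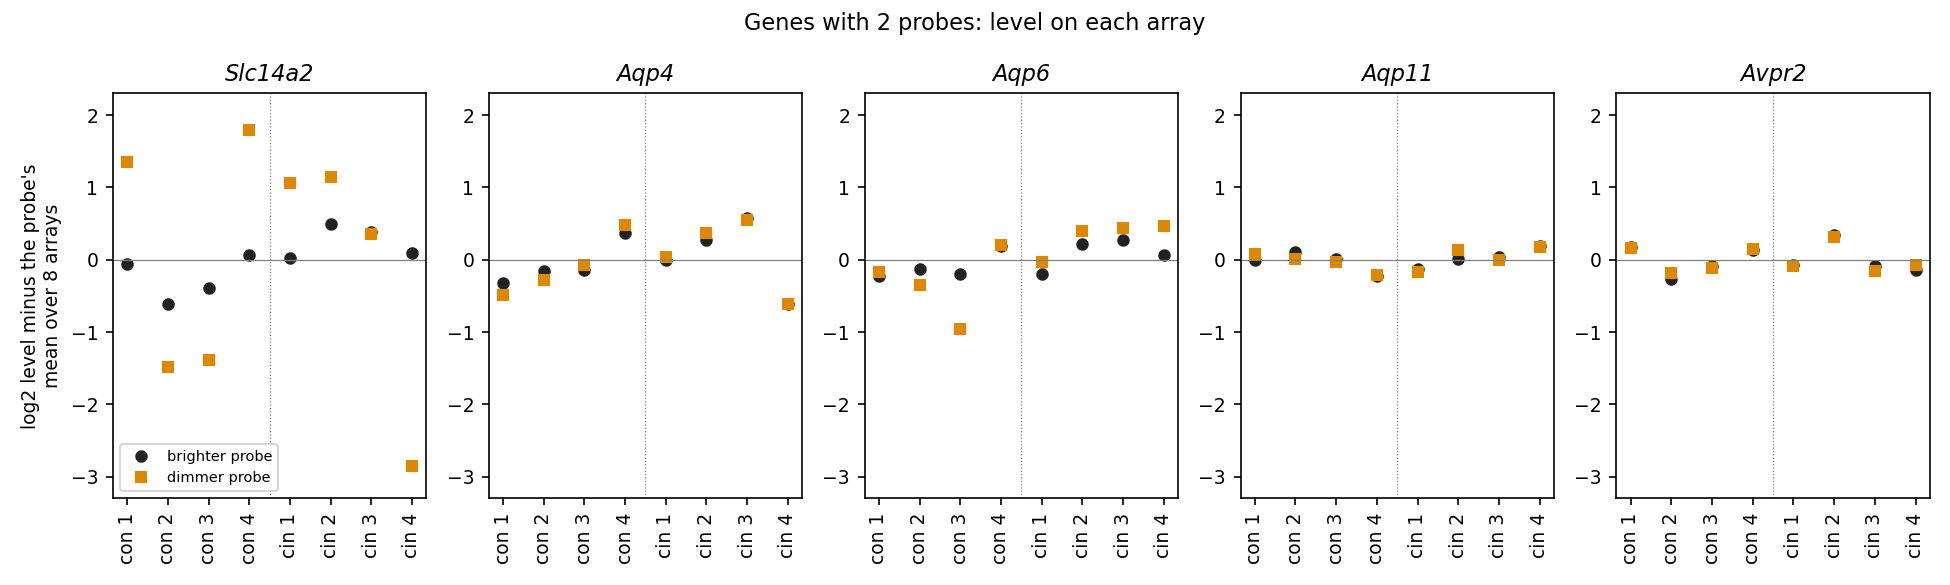
Log2 level minus the probe's own mean over 8 arrays (vertical axis) for the 5 genes with 2 probes, on control arrays (con) 1 to 4 and cinacalcet arrays (cin) 1 to 4; black circles are the brighter probe and orange squares the dimmer one. The pairs for Aqp4, Aqp11 and Avpr2 moved together, while the dimmer Slc14a2 probe ranged 21.7-fold in unscaled intensity and the brighter one 2.32-fold.

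Aqp1, the constitutive water channel of the proximal tubule and descending limb, was at 6.93, 7.08, 6.96 and 6.63 in controls and at 7.10, 6.81, 6.87 and 7.24 with cinacalcet. Control 4 was the lowest array and cinacalcet 4 the highest. The log2 fold change was 0.11 with an interval of -0.20 to 0.41 (limma adjusted p = 0.629), and 0.19 with Y-linked signal as a block (limma adjusted p = 0.0874). Of 7 proximal tubule markers 1 fell and none rose, with a mean level of 5.95 to 6.05 in controls and 5.72 to 6.02 with cinacalcet. Aqp1 is also present in red cells and endothelium. Of 6 measured erythroid markers 5 fell and none rose, with a mean level over the list of 5.67 to 6.06 in controls and 3.63 to 5.04 with cinacalcet, while none of 7 endothelial markers passed, at 1.69 to 1.81 and 1.68 to 1.84. The erythroid marker that did not pass, Slc4a1 at 0.23, is also on the intercalated cell list and enters the mean of each list. Without control 1, control 2, control 3 or cinacalcet 2 the erythroid count was 1, without cinacalcet 3 it was 2, and Hbb-bt, a beta-globin gene, was the marker that fell with any array left out. In whole kidney RNA fewer cells of a type and less RNA per cell cannot be told apart. Aqp1 had a positive estimate while 5 of the 6 erythroid markers fell, and their part in it was not tested.

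Aqp11, an intracellular aquaporin of the proximal tubule endoplasmic reticulum, was at 3.42, 3.53, 3.44 and 3.20 in controls and at 3.30, 3.43, 3.46 and 3.61 with cinacalcet. The groups overlapped, and the log2 fold change was 0.05 with an interval of -0.17 to 0.28 (limma adjusted p = 0.749). A dimmer probe gave 0.07.

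Aqp7, a glycerol and water channel of the straight proximal tubule and of fat cells, was at -1.09, -1.10, -0.94 and -1.12 in controls and at -1.07, -1.10, -1.02 and -0.85 with cinacalcet. It varied least of the 9 over the 8 arrays, with a range of 0.27, and was well above background on all of them. The estimated log2 fold change was 0.05 with an interval of -0.13 to 0.24 (limma adjusted p = 0.706). Of 7 measured fat cell markers 1 fell, the brown fat gene Ucp1, and none rose; the mean level of the list was 0.49 to 2.69 in controls and -1.82 to 1.02 with cinacalcet. Ucp1 was well above background on all 4 control arrays and on 2 of the 4 cinacalcet arrays. The estimate for Aqp7 was 0.05 while 6 of the 7 fat cell estimates were below 0, and the part of fat in it was not tested.

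Aqp6, an anion-conducting channel inside acid-secreting intercalated cells, was at 4.15, 4.25, 4.18 and 4.57 in controls and at 4.19, 4.60, 4.65 and 4.45 with cinacalcet. Control 4, cinacalcet 2 and cinacalcet 3 were the 3 highest arrays. Its log2 fold change was 0.18 with an interval of -0.12 to 0.49 (limma adjusted p = 0.403), and 0.31 with array weights, where it passed (limma adjusted p = 0.0424). That fit called 5438 of all genes. Blocking on Y-linked signal gave 0.10 (limma adjusted p = 0.397), the 5 arrays with that signal gave 0.13 (limma adjusted p = 0.451), and the mean over both probes gave 0.41 (limma adjusted p = 0.172). A second, much dimmer probe, above background on 7 of 8 arrays, was at -4.50 to -3.33 in controls and -3.56 to -3.07 with cinacalcet, a log2 fold change of 0.64 that did not pass (limma adjusted p = 0.142 over 29732 probes). Of 7 intercalated cell markers 1 rose and none fell; the gene that rose was Slc4a9, an intercalated cell anion exchanger, with a log2 fold change of 0.61 (limma adjusted p = 0.0471), and all 7 estimates were above 0. Slc4a9 passed without control 4 and without cinacalcet 1 and was lost without any one of the other 6 arrays (limma adjusted p up to 0.131), with no filter on background and with slide row or replicate number as a block. The other estimates of that list ran from 0.007 for Foxi1 to 0.52 for Slc26a4, with Slc4a1 at 0.23, and none of these passed. The list was not split into acid-secreting and other intercalated cells. Its mean level was 1.44 to 1.91 in controls and 1.62 to 2.04 with cinacalcet, and its part in the Aqp6 estimate was not tested.

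**Figure D3:**
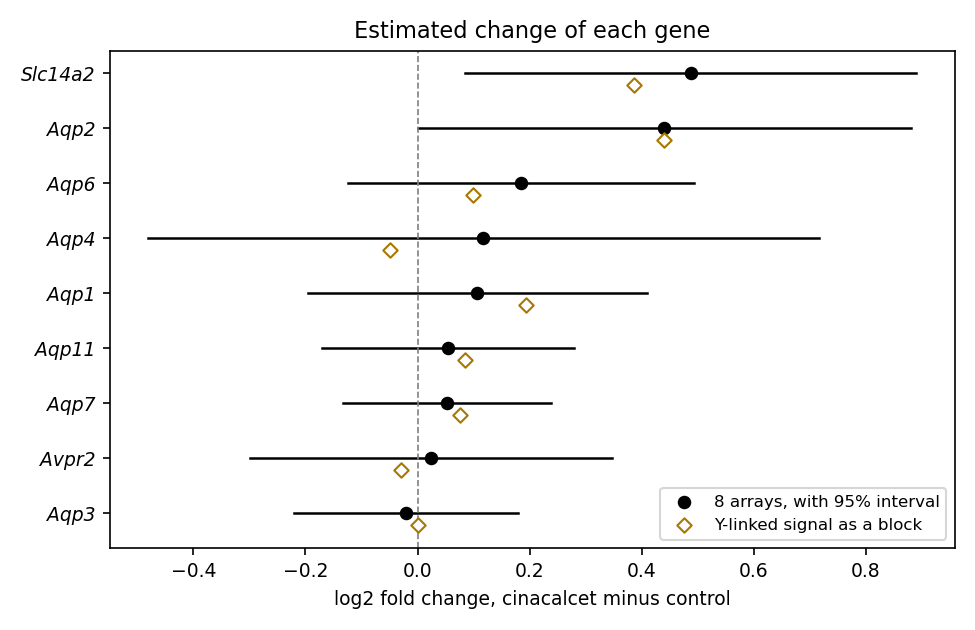
Log2 fold change of cinacalcet over control (horizontal axis) for each of the 9 genes, as the limma estimate from 8 arrays with its 95% confidence interval (black) and as the estimate with Y-linked signal as a block (open diamonds). Slc14a2 and Aqp2 lie at 0.49 and 0.44, and the intervals of all genes but Slc14a2 include 0.

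For 3 of the 9 genes the arrays without Y-linked signal stood clear of the rest, where 24.4% of all genes did so. Aqp4 was at 3.18 to 3.49 on those 3 arrays and at 2.29 to 2.90 on the other 5, and Aqp6 at 4.57 to 4.65 and 4.15 to 4.45. Aqp1 ran the other way, at 6.63 to 6.87 and 6.93 to 7.24. The control group held 1 such array and the cinacalcet group 2. Slc14a2 was at 1.79 to 2.22 on those 3 arrays and at 1.11 to 1.81 on the other 5.

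By Pearson's r of the log2 level over the same 8 arrays, the other genes most like Aqp2 were R3hdm4 (r = 0.954), Cxxc1 (r = 0.950) and Nfx1 (r = 0.948). Those most like the brighter Slc14a2 probe were Arhgap40 (r = 0.981), Cabcoco1 (r = 0.978) and Ildr1 (r = 0.975). None of these 6 genes passed between the groups. All values share the same arrays and scaling, and 13 genes exceeded r = 0.9 with Aqp2 and 180 with Slc14a2. In the annotation Aqp2, Aqp5 and Aqp6 follow each other on chromosome 15, and Aqp7 and Aqp3 on chromosome 4, with Nfx1 next to Aqp7.

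The other genes of renal water handling were counted in lists. Of 5 further aquaporin genes 2 were measured, Aqp5 and Aqp8, and neither passed. Aqp5, a channel of secretory glands that is also found in intercalated cells, spread widely, from -3.48 to -2.29 in controls and from -4.83 to -1.13 with cinacalcet, and Aqp8 was at -3.15 on cinacalcet 4 and at -1.42 to 0.08 on the other 7 arrays. The log2 fold change of Aqp8 was -0.23 (limma adjusted p = 0.848), and 0.43 without cinacalcet 4.

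The list of V2 receptor signalling also holds Avpr1a, the gene of another vasopressin receptor. Of its 16 measured genes 1 rose, none fell and 15 did not pass, with a median log2 fold change of -0.06. Of all genes 3.37% were called higher and 4.64% lower. The gene of this list that rose was Akap7, which encodes an anchor that holds protein kinase A at aquaporin 2 vesicles. It was at 1.41, 1.38, 1.37 and 1.65 in controls and at 1.64, 1.95, 1.97 and 1.93 with cinacalcet, so that the groups overlapped, with control 4 above cinacalcet 1. It rose 1.34-fold from 1.45 ± 0.13 to 1.87 ± 0.15 (limma adjusted p = 0.0479), and its 2 dimmer probes gave log2 fold changes of 0.49 and 0.07.

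Of 26 genes of aquaporin 2 vesicle traffic and turnover 1 rose, none fell and 25 did not pass, with a median log2 fold change of -0.01. The gene was Vamp2, a vesicle SNARE found on aquaporin 2 vesicles. It was at 1.53, 1.51, 1.57 and 1.50 in controls and at 1.74, 2.00, 2.09 and 2.12 with cinacalcet, so every treated array was above every control. It rose 1.38-fold from 1.53 ± 0.03 to 1.99 ± 0.17 (limma adjusted p = 0.0278).

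None of 13 measured principal cell markers and transcription factors passed, although 10 estimates were above 0 and the median log2 fold change was 0.24. The lowest p belonged to Kcnj10, a basolateral potassium channel gene, with a log2 fold change of 0.34 (limma adjusted p = 0.135), and Scnn1b, a subunit of the epithelial sodium channel, with 0.44 (limma adjusted p = 0.144). None of 8 genes of osmolyte handling and the response to hypertonicity passed, with a median of 0.16. Slc6a12, the betaine transporter that hypertonicity induces, was at 0.38, -0.13, -0.10 and 0.78 in controls and at 0.92, 2.04, 0.91 and 1.09 with cinacalcet. Its groups did not overlap and its log2 fold change was 1.01, or 2.01-fold (limma adjusted p = 0.0790). It passed in 4 of 21 alternatives. These were without control 4 (limma adjusted p = 0.0321), among the 5 Y-positive arrays, with array weights and in the fit blocked on slide row. The fit without control 4 had no control array without Y-linked signal. Slc6a12 did not pass without any other single array (limma adjusted p of 0.0904 to 0.197) or with Y-linked signal as a block (limma adjusted p = 0.0556). Without cinacalcet 2 its estimate was 0.74. The heat shock gene Hspa1a had -0.55 (limma adjusted p = 0.227).

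None of 10 genes of the countercurrent system passed, with a median of 0.10. Cldn10, a claudin of the thick ascending limb, had a log2 fold change of -0.36 (limma adjusted p = 0.0674). Of 9 measured paracrine regulators of water transport 1 rose, none fell and 8 did not pass, with a median of -0.04. It was Ednrb, the endothelin B receptor gene, whose receptor limits water and salt uptake in the collecting duct. Ednrb was at -0.24, -0.27, -0.27 and -0.13 in controls and at -0.03, 0.08, 0.27 and 0.30 with cinacalcet, and rose 1.30-fold (limma adjusted p = 0.0461). A dimmer probe gave a log2 fold change of 0.31.

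**Figure D4:**
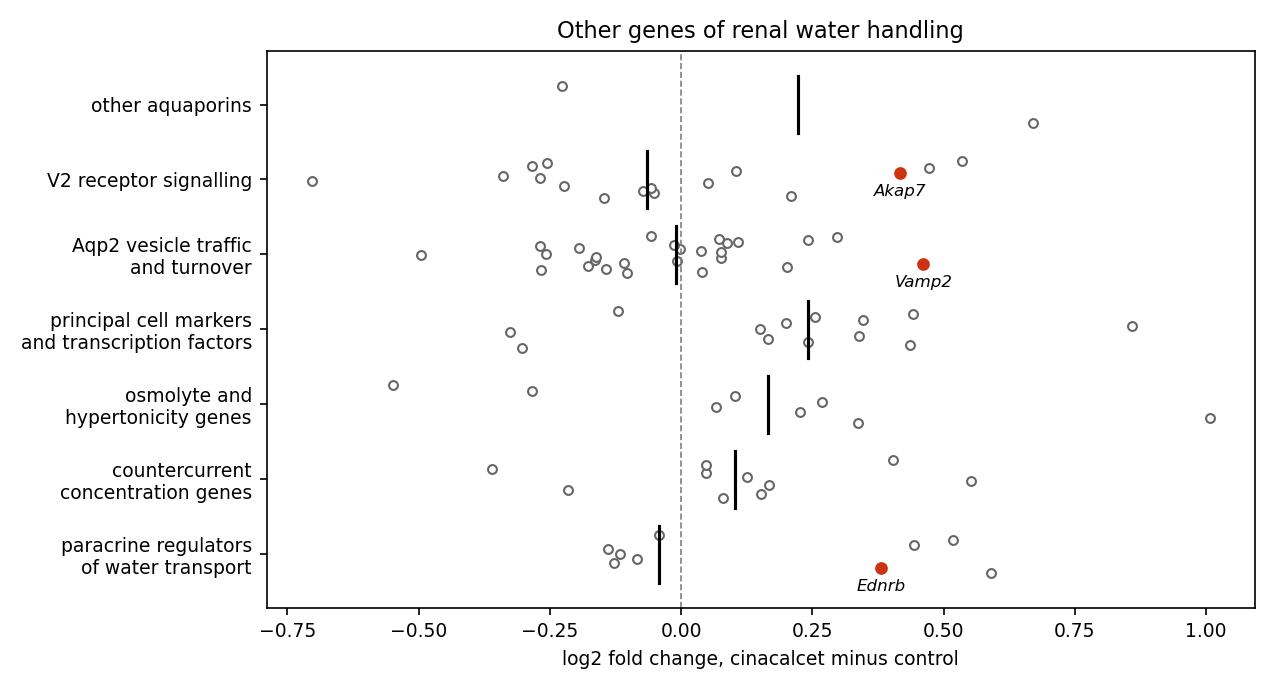
Log2 fold change of cinacalcet over control (horizontal axis) for each measured gene of 7 lists of renal water handling, 1 circle per gene, with the list's median as a vertical black bar; filled red circles passed an adjusted p of 0.05 in limma. Akap7, Vamp2 and Ednrb passed, at 0.42, 0.46 and 0.38.

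With no filter on background, and with replicate number as a block, none of Akap7, Vamp2 and Ednrb passed, nor did any of them within a slide row or among the 5 Y-positive arrays. Akap7 was also lost with quantile normalization (limma adjusted p = 0.0508) and with the mean over its probes (limma adjusted p = 0.0662). Ednrb was also lost with the mean over its probes (limma adjusted p = 0.0915) and with slide row as a block (limma adjusted p = 0.0570). With single arrays left out, each passed without control 4 and without cinacalcet 1, and was lost without any one of the other 6 arrays (limma adjusted p up to 0.134, 0.0850 and 0.130). With Y-linked signal as a block 17.0% of all genes passed and 6.64% passed as higher. There Akap7, Vamp2 and Ednrb all passed (limma adjusted p of 0.0210, 0.0207 and 0.0351), and so did 13 further genes of these lists. Of the principal cell list 3 passed as higher, Kcnj10, Scnn1b and Grhl2. From the same list 1 passed as lower, Npnt, at -0.53 and with the lowest p of these 4 (limma adjusted p = 0.0110). Cldn10 passed as lower. None of the 9 genes passed in that fit. Without control 4, Kcnj10 (limma adjusted p = 0.0332) and Cldn10 (limma adjusted p = 0.01345) passed as well, among 3356 of all 14209 genes. The counts passing there were 7 for V2 receptor signalling, 7 for vesicle traffic and 3 for the principal cell list. They were 2 each for the osmolyte and countercurrent lists and 3 for the paracrine list. That fit had no control array without Y-linked signal.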

How the data were processed

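Kidney RNA of 8 samples, 4 control and 4 cinacalcet by their titles, was measured on single-colour Agilent arrays. The deposited values are spot intensity on a linear scale, background-corrected within each array per the file headers, which name Agilent Feature Extraction 11.0.1.1; the submitters' processing notes name version 9.5. No scaling between arrays is recorded there. All arrays shared 1 slide and 1 scan time.

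Control spots were left out, outlier spots were set to missing, log2 values of a probe's spots were averaged, and the array's 75th percentile over non-control spots was subtracted. A probe was kept if well above background on 4 or more of 8 arrays. RefSeq accessions of the assembly GRCm38.p6 named 27235 of 55681 probes and gave 14209 genes, each represented by its brightest kept probe; the array's own annotation is of another build, so the only coordinates given are those of the promoter windows, from the RefSeq table. All 14 probes of the 9 genes were kept. Groups were compared with limma 3.58.1 in R 4.3.3, with Benjamini-Hochberg adjustment over all genes; intervals are 95% and rest on 4 arrays per group, whose number limits the precision. The fit was tested on simulated data.

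The genes, the 7 lists and 8 marker lists and the tests were chosen with earlier results of these data known. The text names the 9 genes and, from each list, up to 4 genes past the threshold or the 2 with the lowest p, plus the 3 most similar genes to Aqp2 and Slc14a2 (1 gene that this rule names is not reported here); Slc4a9, Ucp1 and the genes named for the Y-linked block beyond these were chosen after their values were seen. Alternatives covered scaling, background correction, probe filters and choice, eBayes and array weights, blocks and single arrays left out. For the normexp alternative the median spot signal was used.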

Additional observations from a re-analysis of the deposited data

Results flagged for a closer look

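In 5 of 50 groups of 4 arrays examined, for the 9 genes, their dimmer probes and the list genes named, 1 array lay far from the other 3; chance gives about 1 in 20. Avpr2 on cinacalcet 2 was at 2.10, above 1.62 to 1.69 on the other treated arrays. Slc6a12, the betaine transporter gene, was at 2.04 on the same array, above 0.91 to 1.09. Akap7 was at 1.65 on control 4, above 1.37 to 1.41, and at 1.64 on cinacalcet 1, below 1.93 to 1.97. The dimmer Aqp6 probe was at -3.56 on cinacalcet 1, below -3.14 to -3.07. Cinacalcet 2 and control 4 are among the 3 arrays without Y-linked signal. Causes were not tested.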

How the results depend on the processing

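Of 189 values of the 9 genes under 21 alternatives, 163 kept direction and side of the threshold, 23 changed sign and 3 passed; Aqp2, Aqp6 and Slc14a2 kept their sign in all 21. The number of the 9 genes called was 0, 2 with array weights (Aqp6 and Slc14a2), and 0 to 1 with single arrays left out. The number of all genes called, 1139, became 367 with no filter on background, 5438 with array weights, 2417 with Y-linked signal as a block, 1 and 0 within slide rows 1 and 2, and 218 to 3356 with single arrays left out. With replicate number as a block 0 genes passed, with 2869 of all genes and 1 of the 9 at an unadjusted p under 0.05 in limma. The same-numbered arrays correlated at 0.337, -0.544, -0.360 and -0.565 in their deviations from group means, and 1 of 8 correlated best with its own number, so the numbers were not taken as pairs. Numbers in the deposited files differ from those in the titles, which were used here. The other 6 genes each changed sign in some alternatives, and the values that follow include some that kept it. Aqp3 was 0.06347 with quantile normalization, 0.03075 with normexp, 0.0001711 with the Y-linked block and -0.06832 to 0.04082 with arrays left out. Aqp1, Aqp7 and Aqp11 were -0.03984, -0.002969 and -0.01595 with array weights, and -0.03247, -0.03069 and -0.1029 within slide row 1. Aqp4 was 0.4323 within slide row 1 and 0.3648 with array weights. Within slide row 2 Aqp1 was 0.2463, and Aqp4 and Avpr2 were -0.1969 and -0.04816, with the Y-linked block -0.05 and -0.03033, and on the 5 arrays with that signal -0.1094 and -0.04437, where Aqp11 was -0.005375. With arrays left out Avpr2 ranged from -0.08714 to 0.08469, Aqp4 from -0.05711 to 0.3435, Aqp7 from -0.001534 to 0.09279 and Aqp11 from -0.01124 to 0.1045. Of 147 counts for the lists, 84 stayed within 1.5 times, 34 were lower and 29 higher. The causes were not tested.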

Other observations

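The dimmer Slc14a2 probe shared its pattern with other genes, which were looked up after its values were seen. Over the 8 arrays the log2 levels most like it were those of Cryab, a small heat shock protein gene abundant in the inner medulla (r = 0.986), Loxl4 (r = 0.947) and Sh3gl3 (r = 0.947), as a description over arrays that share 1 slide and scaling. Cryab was at 6.41, 5.96, 5.89 and 6.58 in controls and at 6.37, 6.51, 6.28 and 5.52 with cinacalcet, low on control 2, control 3 and cinacalcet 4 as the probe was. Slc14a1, the urea transporter of the vasa recta and red cells and the neighbour of Slc14a2 in the annotation, was at -1.07, -1.85, -1.85 and -0.71 in controls and at -1.28, -0.52, -1.22 and -2.14 with cinacalcet, and its log2 fold change was 0.08 (limma adjusted p = 0.910). Over the same arrays the probe's r was 0.926 with Slc14a1, 0.819 with Aqp5, 0.631 with Aqp4 and 0.431 with Aqp2. The 3 arrays low for the probe were the lowest for Slc14a1 and for Aqp5, which was not above background on cinacalcet 4. The amount of inner medulla in each sample was not measured.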
